A study of Mus musculus with 4 samples.

Results

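Collagens are the main structural proteins of the extracellular matrix, and 44 of the 24445 genes in the deposited expression table encode their chains. They were taken as every gene whose symbol is Col, a type number, the letter a and a chain number, and were grouped into 11 fibrillar, 9 basement membrane and 24 other collagens. RNA had been sequenced from cultured mouse primary myoblasts, the dividing precursors of muscle fibres, in 4 libraries, 2 of WT and 2 of Tet2 KO. Both groups were C57BL/6, and the study's methods give 8 to 10 weeks and male as the default for its mice. The Tet2 KO mice lacked exon 3 of Tet2 in the whole body, so cells other than myoblasts carried the deletion too. Satellite cells, the stem cells of muscle, had been sorted from the hindlimb without cells bearing CD45, CD11b, CD31 or Sca1, keeping those with CD34 and Integrin a7. They were then grown for at least 3 days on plates coated with type I collagen at 0.5 mg/ml until they were MyoD+ myoblasts. The coating is protein, while the values below are RNA. For each gene the table gives 1 level per group, combined over its libraries, in FPKM (fragments per kilobase of transcript, scaled to the mapped fragments of each library). No spread between libraries stands beside any value, and no difference below was tested, since values per library were not used and the authors’ own statistics in the table were left aside. The table does not give library depths.

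A collagen molecule is a rope of 3 chains, and each chain is built of triplets that begin with glycine, because glycine alone fits inside the rope. Most fibrillar collagens carry a long unbroken triplet region, and they pack side by side into banded fibrils. Type IV collagen has a broken triplet region and forms the sheet-like network of the basement membrane, which wraps each muscle fibre and the satellite cells on it. Tet2 is an enzyme that oxidises 5-methylcytosine in DNA, a step of DNA demethylation.

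The glycine repeat was read from coding transcripts of GENCODE vM1 for all 44 genes. The coding sequences below show the first 6 triplets of the longest repeat of the chains that the results turn on, 5′ to 3′, with glycine codons in capitals.
Col3a1: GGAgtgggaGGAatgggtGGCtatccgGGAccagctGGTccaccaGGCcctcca
Col5a2: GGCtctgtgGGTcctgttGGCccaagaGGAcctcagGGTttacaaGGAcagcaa
Col1a2: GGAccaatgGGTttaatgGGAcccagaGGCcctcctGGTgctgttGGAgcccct
Col4a1: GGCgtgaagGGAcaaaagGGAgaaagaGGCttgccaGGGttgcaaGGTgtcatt
Col18a1: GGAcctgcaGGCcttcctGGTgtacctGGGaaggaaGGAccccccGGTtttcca
Col25a1: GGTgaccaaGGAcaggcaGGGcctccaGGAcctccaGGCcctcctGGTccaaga
In each of the 6 stretches the first codon of every triplet encodes glycine. The longest unbroken run was 344 triplets, in Col3a1, and the fibrillar chains of types I, II, III, V and XI had 337 to 344. Col24a1 and Col27a1, also fibrillar, each had 3 runs of at least 6 triplets, the longest holding 216 and 217. The longest run in Col4a1 held 40 triplets, in Col25a1 also 40 and in Col18a1 30. Runs of at least 6 triplets made up from 8.19% of the residues in Col12a1 to 86.0% in Col9a3.

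Levels of 18 collagen genes reached a mean of 1 FPKM over both groups, among 11692 genes of the table that did, and the other 26 lay below. No collagen gene was listed at 0 in either group. The summed collagen level was 496 FPKM in Tet2 KO against 487 FPKM in WT, 0.088% and 0.086% of all FPKM in the table. A fibrillar pair held most of it: Col3a1 and Col5a2 together had 330.3 FPKM in Tet2 KO against 306 FPKM in WT, 66.6% and 62.8% of the collagen sum. Fibrillar genes as a group held 73.4% of the collagen level in Tet2 KO and 68.1% in WT. Basement membrane genes held 17.3% in Tet2 KO and 21.4% in WT, and the other types held 9.37% and 10.5%.

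**Figure D1:**
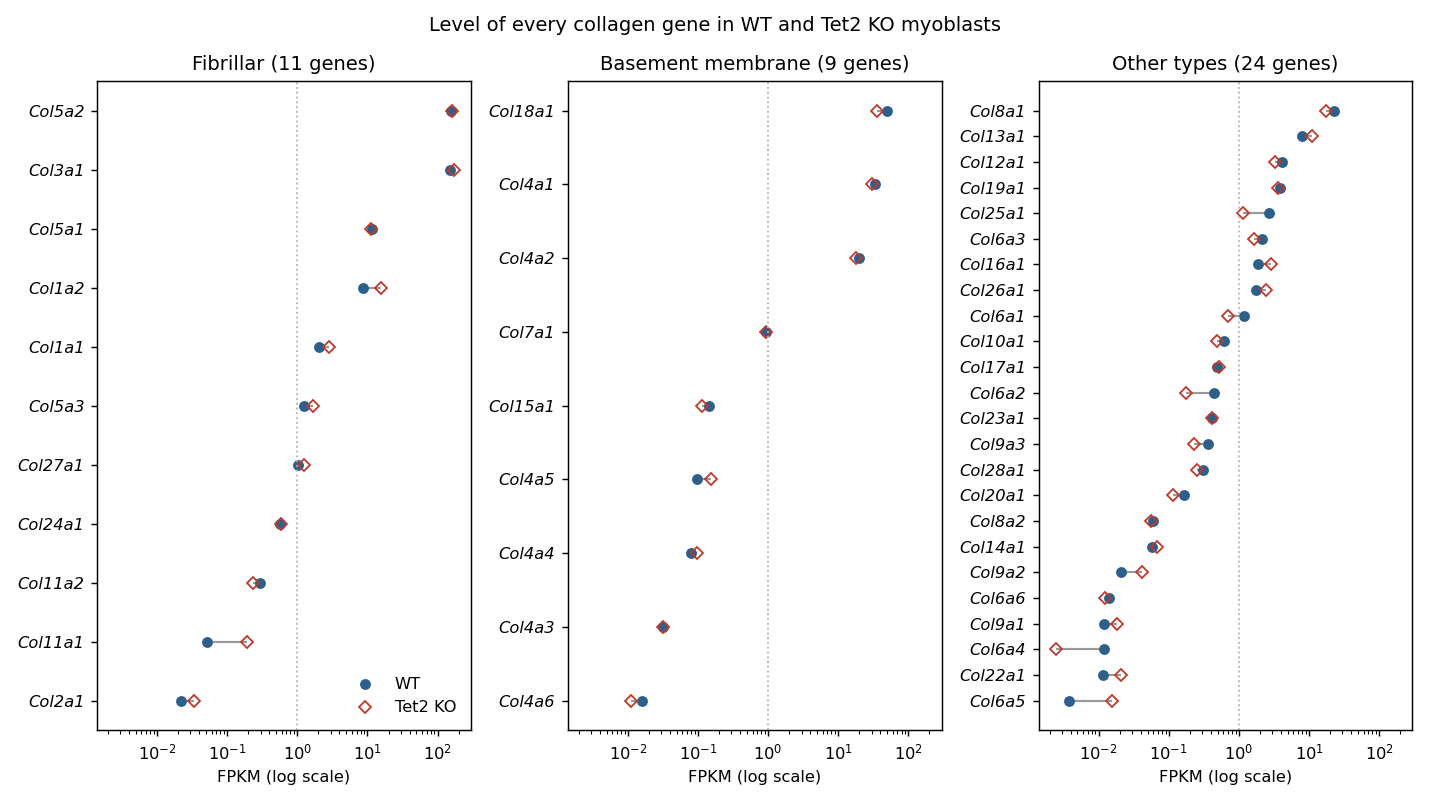
FPKM of each of the 44 collagen genes on a log axis, with WT as filled circles and Tet2 KO as open diamonds, 1 combined value per group, split into fibrillar, basement membrane and other types. The dotted line marks 1 FPKM, and Col3a1 and Col5a2 are the 2 highest genes in both groups.

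**Figure D2:**
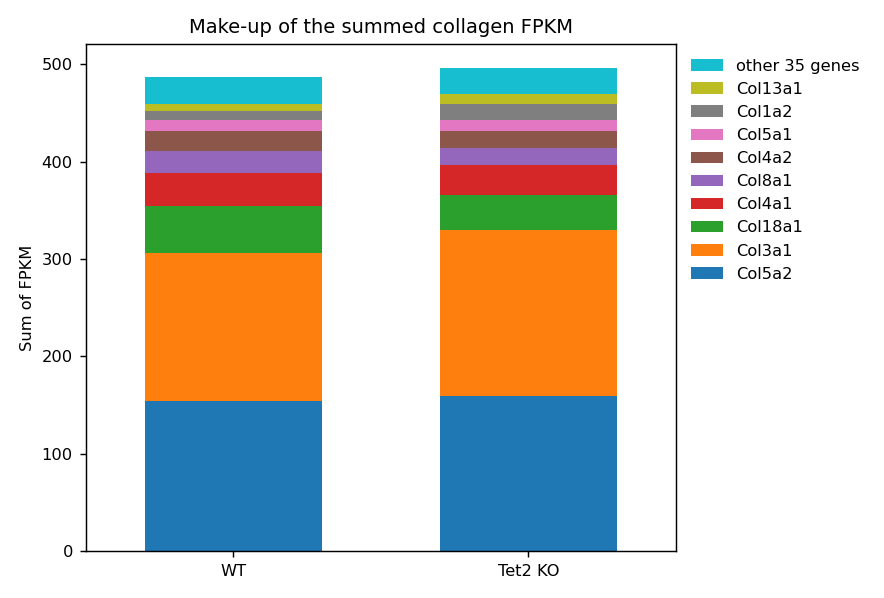
Sum of FPKM over the 44 collagen genes in WT and Tet2 KO, stacked by gene, with the 9 genes of highest WT level shown and the other 35 summed. The stacks reach 487 and 496 FPKM, and Col3a1 and Col5a2 make up most of both.

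The Tet2 KO and WT levels were compared as log2((Tet2 KO FPKM + 1) / (WT FPKM + 1)), here called the difference, which understates the change of low genes. Positive differences mean a higher level in Tet2 KO. Over the 11692 genes with a mean of at least 1 FPKM the median difference was -0.0044, and the central 95% of genes ran from -0.65 to 0.88. At a 1.5-fold difference or more, 1 of the 18 collagen genes, Col1a2, was higher in Tet2 KO, against 3.72% of all genes. Likewise 1 of the 18, Col25a1, was lower, against 2.89% of all genes. At 2-fold or more, 0 were higher and 0 lower, against 2.08% and 1.21% of all genes. This rests on the 1 FPKM added: the WT level of Col25a1 was 2.37 times its Tet2 KO level, and with 0.1 FPKM added its difference was -1.18, past 2-fold. The median difference of the 18 genes was -0.012, with 9 higher and 9 lower in Tet2 KO. Their median size of difference, without its sign, was 0.26, against 0.10 over all genes. The 18 genes were not set against genes of similar level. Whether they differ by more than such genes was therefore not tested.

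**Figure D3:**
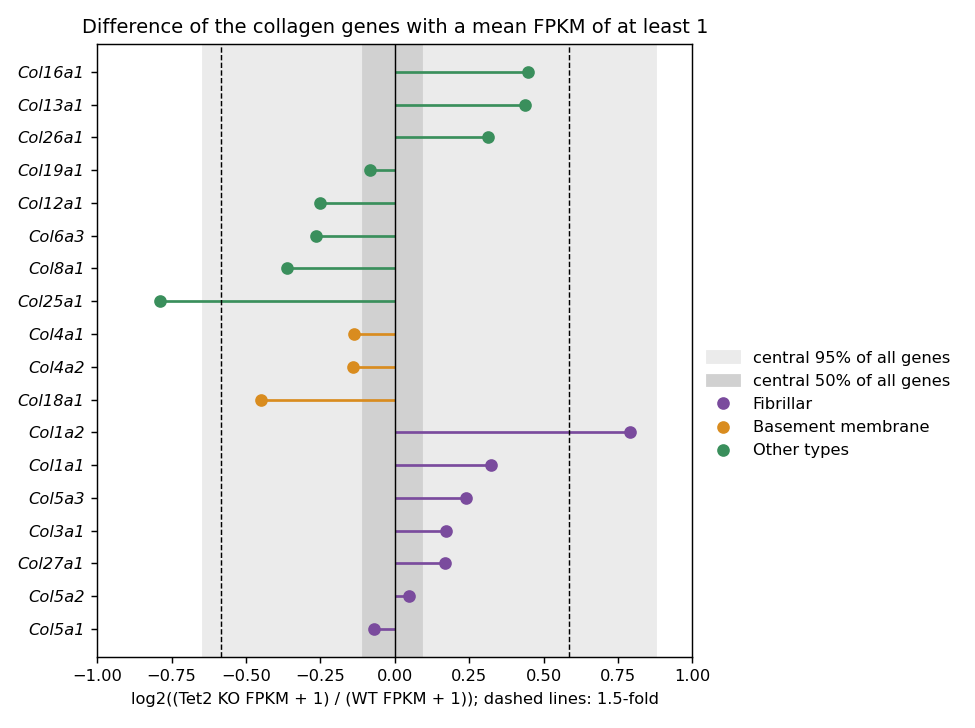
Difference between Tet2 KO and WT, as log2((Tet2 KO FPKM + 1) / (WT FPKM + 1)), of the 18 collagen genes with a mean of at least 1 FPKM, coloured by group. Shading marks the central 50% and 95% of all genes, dashed lines mark 1.5-fold, and Col1a2 (0.79) and Col25a1 (-0.79) are the only points beyond the dashed lines.

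The Tet genes and markers of cell identity were set beside the collagen results. Tet2 itself had a level of 5.79 FPKM in Tet2 KO against 6.64 FPKM in WT, a difference of -0.17. This value covers the whole gene and does not show exon 3 separately, so it does not check the labels. Tet1 had 0.364 FPKM in Tet2 KO against 0.484 FPKM in WT, and Tet3 had 3.70 and 3.39 FPKM. Of 8 myoblast markers all were present and all were lower in Tet2 KO, with a median difference of -0.15. By 1.5-fold or more 1 of the 8 was lower, against 2.89% of all genes. The least different was Pax7, the satellite cell factor, at -0.018. Myod1, the myoblast-defining transcription factor, had 313 FPKM in Tet2 KO against 336 FPKM in WT. Myog, which drives differentiation, had 268 FPKM in Tet2 KO against 554 FPKM in WT. All 8 leukocyte markers were higher in Tet2 KO by at least 1.5-fold, against 3.72% of all genes. Their differences ran from 0.94 for Cd68 to 2.07 for Lyz2. Between these lay Laptm5 (0.96), Fcer1g (1.58), Csf1r (1.60), Itgam (1.84), which encodes CD11b, and Tyrobp (1.85). Ptprc, which encodes CD45, had 5.67 FPKM in Tet2 KO against 1.36 FPKM in WT. The summed level of the 8 was 365 FPKM in Tet2 KO against 92.8 FPKM in WT, although CD45 and CD11b had been used to sort such cells out.

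The fibrillar genes were mostly a little higher in Tet2 KO: 6 of the 7 with a mean of at least 1 FPKM were higher, 1 was lower, and the median difference was 0.17. Col1a2, which encodes the alpha 2 chain of type I collagen, the main collagen of tendon, bone and scar, had 15.8 FPKM in Tet2 KO against 8.71 FPKM in WT. Its difference was 0.79, or 1.73-fold on FPKM + 1, and 4.69% of all genes with a mean of at least 1 FPKM differed by as much in either direction. Its partner Col1a1, the alpha 1 chain, had only 2.84 FPKM in Tet2 KO against 2.07 FPKM in WT, a difference of 0.32. Both chains of type I were thus higher in Tet2 KO, the alpha 2 chain by more. Col1a1 shares 1.66% of its exonic bases with another annotated gene, and the library kit did not keep strand, so reads there cannot be assigned.

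Type III and type V led the fibrillar group. Col3a1, the single chain of type III collagen, which forms fine reticular fibres, had 171 FPKM in Tet2 KO against 152 FPKM in WT, a difference of 0.17. Only 2.495% of all genes in the table had a WT level at or above it. Col5a2, the alpha 2 chain of type V, the collagen that starts and limits fibril growth, had 159.5 FPKM in Tet2 KO against 154 FPKM in WT, a difference of 0.047. Col5a1, its alpha 1 chain, had 11.2 FPKM in Tet2 KO against 11.8 FPKM in WT, and its difference of -0.071 made it the 1 fibrillar gene that was lower. Col5a1 and Col5a2 thus differed by less than the median size for collagen genes. Col5a1 shares 2.497% of its exonic bases with other annotated genes. Col5a3, a rarer type V chain, had 1.65 FPKM in Tet2 KO against 1.25 FPKM in WT, a difference of 0.24. Col27a1 had 1.26 FPKM in Tet2 KO against 1.01 FPKM in WT, a difference of 0.17. The fibrillar chains below the level filter were Col24a1, Col2a1 and both type XI chains, of which types II and XI belong to cartilage, and none exceeded 0.592 FPKM.

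The 3 basement membrane genes with a mean of at least 1 FPKM were all lower in Tet2 KO, by less than 1.5-fold, with a median difference of -0.14. Col18a1 had the largest of these differences, with 35.5 FPKM in Tet2 KO against 48.9 FPKM in WT. Its difference was -0.45, and 9.08% of all genes differed by as much in either direction. Col18a1 encodes type XVIII collagen, a core protein that carries heparan sulphate and from which endostatin is cut. Its share of the collagen level was 7.16% in Tet2 KO and 10.03% in WT.

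Col4a1 and Col4a2, whose chains together form the common type IV network, differed alike. Col4a1 had 30.8 FPKM in Tet2 KO against 34.0 FPKM in WT, and Col4a2 had 18.0 and 19.9 FPKM. Both differences came to -0.14. The 4 chains of the specialised type IV networks, Col4a3 to Col4a6, were near 0, none above 0.153 FPKM. Col7a1, the chain of the anchoring fibrils of skin, lay just under the filter, with 0.938 FPKM in Tet2 KO against 0.939 FPKM in WT. Col15a1, the relative of Col18a1, had 0.115 and 0.142 FPKM.

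Among the other types 8 of 24 genes reached a mean of 1 FPKM, of which 3 were higher and 5 lower in Tet2 KO, with a median difference of -0.17. Over those with a mean of at least 5 FPKM this median turned to 0.039. The transmembrane collagens, which sit in the cell membrane with their triplets outside, lay in opposite directions. Col25a1, a muscle collagen that is known to be needed for motor nerves to grow into muscle, had 1.13 FPKM in Tet2 KO against 2.68 FPKM in WT. Its difference was -0.79, or 1.73-fold lower on FPKM + 1, and 4.70% of all genes differed by as much in either direction. Col13a1, which is needed for the neuromuscular junction to mature, had 10.95 FPKM in Tet2 KO against 7.82 FPKM in WT, a difference of 0.44. The other transmembrane chains, Col17a1 and Col23a1, had at most 0.526 FPKM.

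Col8a1, a short-chain network collagen, was the most abundant of the other types, with 17.4 FPKM in Tet2 KO against 22.7 FPKM in WT, a difference of -0.36. Its sister chains Col8a2 and Col10a1 had at most 0.616 FPKM. The FACIT collagens, which bind along fibrils with interrupted triplets, were low. Col16a1 had 2.91 FPKM in Tet2 KO against 1.86 FPKM in WT, a difference of 0.45, or 0.62 and past 1.5-fold with 0.1 FPKM added. Col12a1 had 3.29 FPKM in Tet2 KO against 4.10 FPKM in WT, a difference of -0.25. Col19a1, known as a collagen of early muscle, had 3.55 and 3.82 FPKM, a difference of -0.082. The FACIT chains therefore showed no common direction. Col26a1, a short collagen first found in testis and ovary, had 2.45 FPKM in Tet2 KO against 1.78 FPKM in WT, a difference of 0.31.

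Type VI collagen, the beaded filament around muscle fibres whose loss causes muscular dystrophy, was low in both groups and lower in Tet2 KO for its main chains. Col6a3 had 1.63 FPKM in Tet2 KO against 2.154 FPKM in WT, a difference of -0.26. Col6a1 lay just under the filter, with 0.708 FPKM in Tet2 KO against 1.17 FPKM in WT, a difference of -0.35. Col6a2 had 0.179 FPKM in Tet2 KO against 0.438 FPKM in WT. The remaining chains, Col6a4 to Col6a6, had at most 0.0156 FPKM. At such levels a few reads can set a value, and how many is not known from FPKM.

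Ratios between chains were compared, mostly of chains that assemble into the same collagen, since FPKM is scaled to length. Type I molecules usually hold more alpha 1 than alpha 2 chains, and type V molecules likewise. In RNA, the Col1a2 level exceeded that of Col1a1 5.56-fold in Tet2 KO and 4.21-fold in WT. Col5a2 exceeded Col5a1 14.3-fold in Tet2 KO and 13.1-fold in WT. These are RNA levels of different genes and do not measure the chains in the protein. Col1a1 was low: with 1 FPKM added to both, the ratio of Col1a1 to Col1a2 was 0.229 in Tet2 KO and 0.316 in WT. Without it the ratio was 0.180 and 0.238. For type IV the level of Col4a1 was 1.71 times that of Col4a2 in Tet2 KO and 1.70 times in WT. The type IV ratio was thus nearly the same in both groups, while the ratio of Col3a1 to Col1a2, chains of different collagens, was 10.8 in Tet2 KO and 17.4 in WT. Col6a3 exceeded Col6a1 2.30-fold in Tet2 KO and 1.84-fold in WT, from levels near the filter.

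Several collagen genes are neighbours, and the most abundant pair is one of them. On mm9, Col3a1 lies on chromosome 1 from 45368383 to 45406551 on the plus strand. Col5a2 follows from 45431166 to 45560127 on the minus strand, tail to tail with it across a gap of 24614 bases. Col1a2 lies on chromosome 6, where the table's start is 4455618 and its end 4491543, and Col25a1 on chromosome 3 from 129883763 to 130302801, both on the plus strand. Col18a1 is a minus-strand gene of chromosome 10, spanning 76514924 to 76629275. Col4a1 (11198423 to 11312826, minus strand) and Col4a2 (11312805 to 11449287, plus strand) lie head to head on chromosome 8 and overlap by 22 bases at their starts. The table lists both under the same merged region, 11198423 to 11449287, although it gives them separate levels. Reads from the 22 shared bases cannot be assigned to a strand. The other head-to-head pairs, Col4a3 with Col4a4 and Col4a5 with Col4a6, had no chain above 0.153 FPKM.

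Starts of these genes are shown because CG is the sequence at which 5-methylcytosine mostly occurs. The stretches are of mm9, plus strand and 5′ to 3′. Those of Col1a2, Col25a1 and Col3a1 lie within the 250 bases before the RefSeq start and leave out exons annotated in GENCODE vM1. The Col1a2 stretch is intronic in 1 of its annotated transcripts and upstream of the others, and the type IV stretch lies across both starts. For Col1a2, Col25a1 and Col3a1 every CG is in capitals, and for the type IV pair the capitals mark the 22 bases shared by both first exons.
Col1a2 (chr6:4455370-4455492): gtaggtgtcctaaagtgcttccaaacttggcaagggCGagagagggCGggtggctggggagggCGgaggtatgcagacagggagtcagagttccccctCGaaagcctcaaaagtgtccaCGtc
Col25a1 (chr3:129883513-129883762): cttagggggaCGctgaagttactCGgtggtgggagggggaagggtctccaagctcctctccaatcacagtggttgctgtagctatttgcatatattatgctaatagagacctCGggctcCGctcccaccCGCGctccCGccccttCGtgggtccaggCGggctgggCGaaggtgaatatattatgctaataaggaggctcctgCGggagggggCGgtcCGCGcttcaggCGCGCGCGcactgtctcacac
Col3a1 (chr1:45368133-45368382): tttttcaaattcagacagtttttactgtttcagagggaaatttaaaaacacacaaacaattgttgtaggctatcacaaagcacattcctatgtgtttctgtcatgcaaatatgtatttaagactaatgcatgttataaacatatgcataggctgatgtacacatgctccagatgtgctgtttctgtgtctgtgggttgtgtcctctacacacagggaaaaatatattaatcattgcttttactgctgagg
Col4a1 and Col4a2 (chr8:11312801-11312830): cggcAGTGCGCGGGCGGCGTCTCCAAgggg
The 250 bases printed for Col3a1, the chain with the highest Tet2 KO level, hold no CG, while those of Col25a1 hold 18. The 123 bases of Col1a2 hold 5. RefSeq promoter windows, each 250 bases before to 50 after a start (GRCm38.p6, each placed on mm9 by exact match), were found for 35 of the 44 genes in 38 windows. They had a median of 11.5 CG, against 7 over all 32851 windows. The 15 windows of collagen genes with a mean of at least 1 FPKM had a median of 18, from 0 in Col3a1 to 37 in Col4a1, and the 23 of the genes below had 8. CANNTG, the E box that MyoD and related factors bind and which reads alike on both strands, occurred in 20 of the 38 windows (52.6%), against 72.3% of all windows. One form of it, CAGCTG, occurred in 7 (18.4%), against 16.3% of all windows. The Col3a1 window held 4 CANNTG, none of them CAGCTG, and those of Col1a2, Col25a1, Col4a1 and Col4a2 held no CANNTG. These letters are a description of the windows, and no methylation or binding was measured here. The genes with no match were Col12a1, Col14a1, Col1a1, Col22a1, Col26a1, Col2a1, Col4a3, Col5a2 and Col9a3.

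Genes that act on collagen were examined in 5 lists, with the same 1.5-fold limit. By that limit 3.72% of all genes with a mean of at least 1 FPKM were higher in Tet2 KO and 2.89% lower. Enzymes and chaperones that hydroxylate and fold the chains in the endoplasmic reticulum were abundant and nearly level: 17 of 19 had a mean of at least 1 FPKM, 0 were higher and 0 lower by 1.5-fold, and the median difference was -0.0054. The collagen chaperone Serpinh1 (HSP47) had 367 FPKM in Tet2 KO against 336 FPKM in WT. The extremes were Tmem38b, an ion channel of the endoplasmic reticulum, at a difference of -0.39 and P3h2, a prolyl hydroxylase, at 0.32. Genes of secretion and of trimming of the propeptides gave 0 higher and 0 lower among 10 of 16 genes, with a median difference of 0.087. They ran from -0.23 for Adamts2, which cuts off the amino-terminal propeptide, to 0.50 for Tll1, which can cut the carboxy-terminal one. Mia3 was among the 4049 genes listed at 0 in both groups. Reads were not examined, so a listed 0 does not show that Mia3 was not expressed. Ctage5 was not found in the table by that symbol.

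The lysyl oxidases, which cross-link collagen and elastin outside the cell, had a median difference of 0.28 over 5 genes. By 1.5-fold 1 of the 5 was higher, against 3.72% of all genes. Loxl1 had 8.18 FPKM in Tet2 KO against 4.66 FPKM in WT, a difference of 0.70, whereas Lox had 25.4 FPKM in Tet2 KO against 29.3 FPKM in WT. Of the collagen receptors, 7 of 10 had a mean of at least 1 FPKM. By 1.5-fold 2 of the 7 were higher and 0 lower, against 3.72% and 2.89% of all genes. Lair1, a receptor of leukocytes, had 2.84 FPKM in Tet2 KO against 0.636 FPKM in WT, a difference of 1.23. Itga2, the collagen-binding integrin alpha 2, had 1.63 FPKM in Tet2 KO against 0.675 FPKM in WT, a difference of 0.65. Lair1 and Itga2 lay below 1 FPKM in WT and passed the filter through their Tet2 KO level alone. Itgb1, the shared beta 1 chain, had 215 FPKM in Tet2 KO against 227 FPKM in WT, and the tyrosine kinase receptor Ddr1 had 28.8 and 37.3 FPKM.

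The list of collagen breakdown and its inhibitors stood farthest from 0, with a median difference of 0.47 over 9 of 10 genes. That median is the value of Timp1, an inhibitor. The list held 3 genes higher and 1 lower by 1.5-fold, against 3.72% and 2.89% of all genes. Mmp13, a collagenase, had 7.46 FPKM in Tet2 KO against 1.35 FPKM in WT, a difference of 1.85. Mmp8, the collagenase named for neutrophils, had 13.6 FPKM in Tet2 KO against 3.20 FPKM in WT, a difference of 1.80. Mmp9, a gelatinase, had 1.64 FPKM in Tet2 KO against 0.521 FPKM in WT, a difference of 0.80. It passed the filter through its Tet2 KO level alone. Against these, Mmp14, the membrane-bound collagenase, had 23.3 FPKM in Tet2 KO against 36.6 FPKM in WT, a difference of -0.63. Mmp2, another gelatinase, was just short of the limit, with 3.27 FPKM in Tet2 KO against 1.85 FPKM in WT. Timp1, an inhibitor of these enzymes, had 385 FPKM in Tet2 KO against 277 FPKM in WT, a difference of 0.47. The other inhibitors lay the opposite way, Timp2 with 34.8 FPKM in Tet2 KO against 44.9 FPKM in WT and Timp3 with 44.9 and 54.6 FPKM. The leukocyte markers named above lay in the same direction as Mmp8, Mmp9, Mmp13 and Lair1, and their part in these differences was not tested.

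**Figure D4:**
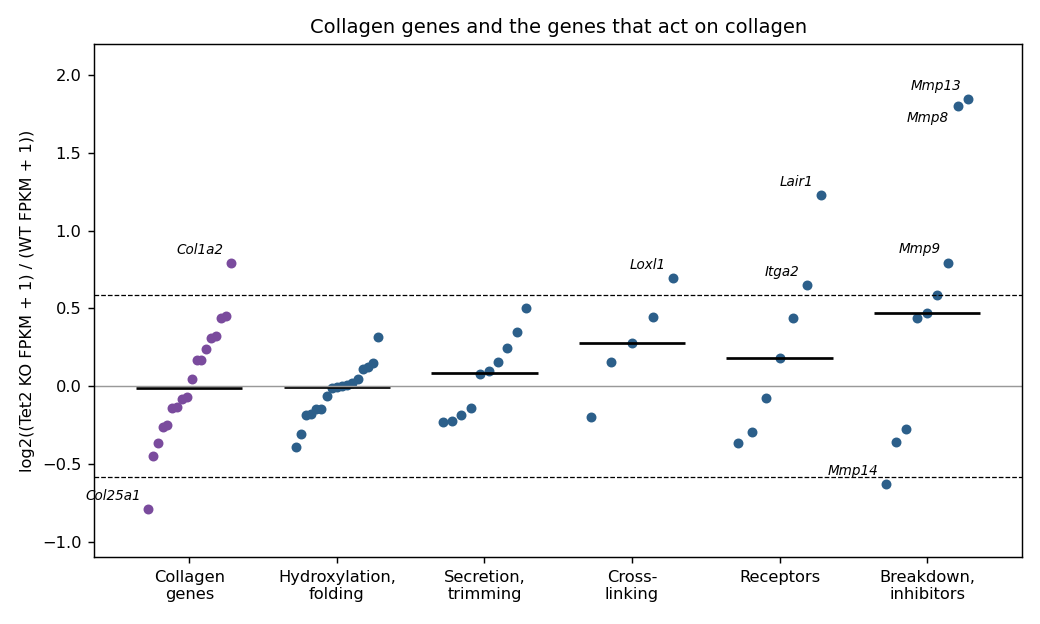
Difference between Tet2 KO and WT, as log2((Tet2 KO FPKM + 1) / (WT FPKM + 1)), of collagen genes and of 5 lists of genes that act on collagen, 1 point per gene with a mean of at least 1 FPKM. Black bars are list medians, dashed lines mark 1.5-fold and genes beyond them are named. Folding genes centre on -0.0054, and the list of breakdown genes and their inhibitors on 0.47, the value of the inhibitor Timp1.

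Markers of other cells that make collagen were set beside these values. Of 14 fibroblast markers 8 had a mean of at least 1 FPKM, with a median difference of 0.32. By 1.5-fold 3 were higher and 0 lower, against 3.72% and 2.89% of all genes. The 14 markers summed to 340 FPKM in Tet2 KO against 321 FPKM in WT. That sum was mostly Ly6a, with 288 and 278 FPKM, a difference of 0.050. Without it, an alternative chosen after seeing the data, the sums were 52.1 FPKM in Tet2 KO against 42.9 FPKM in WT. The median difference was then 0.50, in part because a nearly level gene was left out. Much of the remaining sum was Fbn1, with 26.1 FPKM in Tet2 KO against 23.5 FPKM in WT, a difference of 0.14. Thy1 had a difference of 0.11. Mfap5 had 3.27 FPKM in Tet2 KO against 1.13 FPKM in WT, Dcn, the proteoglycan decorin, had 7.04 and 3.15 FPKM, and Twist2 had 3.08 and 1.62 FPKM. Pdgfra, a defining marker of muscle fibroblasts, had 1.91 FPKM in Tet2 KO against 1.06 FPKM in WT. Postn ran the other way, at 6.05 and 8.95 FPKM, and the fibroblast genes Dpt and Tcf21 were near 0, with at most 0.0675 FPKM. Of the other markers under the filter, Pi16 had 0.628 FPKM in Tet2 KO against 0.194 FPKM in WT, Lum had 0.456 and 0.199 FPKM, and Osr1 had 0.858 and 0.553 FPKM. The marker Fap is also in the breakdown list, and it had at most 0.214 FPKM. Several of these markers thus lay in the same direction as Col1a1 and Col1a2, and their part in the type I difference was not tested. Of the 18 collagen genes with a mean of at least 1 FPKM, 9 were higher and 9 lower in Tet2 KO. The lower ones included Col6a3 (-0.26) and Col12a1 (-0.25). In bulk RNA fewer cells of a type cannot be told apart from less RNA per cell.

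Tendon, pericyte, endothelial and cartilage markers were mostly low. Of the tendon list 2 of 5 genes had a mean of at least 1 FPKM, the lowest difference being -0.37 (Mkx). Scx had 50.6 FPKM in Tet2 KO against 59.7 FPKM in WT, and Tnmd was listed at 0 in both. Of the pericyte list 3 of 6 did, with Abcc9 lower at a difference of -0.59 (0.770 and 1.67 FPKM) and Notch3 highest at 0.068. Abcc9 passed the filter through its WT level alone. In the endothelial and cartilage lists 1 gene each passed the filter. Pecam1 had 1.48 FPKM in Tet2 KO against 1.63 FPKM in WT, and Sox9 had 3.39 and 3.20 FPKM. Neither differed by 1.5-fold.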

How the data were processed

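RNA of sorted and cultured WT and Tet2 KO myoblasts, 2 libraries each, was made into TruSeq RNA v2 libraries. As the study describes, the authors trimmed the reads, aligned them with TopHat 2.0.13 to mm9 and compared the groups with Cuffdiff 2.2.1; the gene annotation is not given in the sources used here. The deposited values are FPKM, 1 per gene and group, combined over libraries and scaled by the authors' program, so counts and depth are unknown. The table also holds the authors’ own comparison (log ratio, test statistic, p, q and a significance flag per gene), which was not used.

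From the FPKM values, log2((Tet2 KO FPKM + 1) / (WT FPKM + 1)) was computed for every gene. Genes with a mean of at least 1 FPKM were compared, and 1.5-fold or more, a size and not a test, was the limit for naming a difference. With 1 value per group, no test was run. Every collagen gene passing the filter is named. Of the other lists, genes past 1.5-fold and the highest and lowest members are named, and genes outside that rule were added after their values were seen. The members and the lists were chosen with earlier results of these data known. Positions are those of the table, with 1 added to its starts, and of GENCODE vM1 on mm9, where all 44 genes were found. Glycine repeats were translated from its coding transcripts, and promoters are RefSeq's. The code for the difference and the fold limit was checked on simulated data. Folds were put only into genes with WT levels above those of Col1a2 and Col25a1, so the check does not bear on their differences. The result of 1 further marker list is not reported here. Alternatives varied the pseudocount, the filter, the fold, the unit (TPM) and the centring. Python 3.11.15, numpy 2.4.6, pandas 2.3.3 and matplotlib 3.10.9 were used.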

Additional observations from a re-analysis of the deposited data

How the results depend on the processing

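With 1 value per group, an alternative was read as keeping a result when the direction held and a median, share or ratio moved by no more than 1.5 times. A pseudocount of 0.1 gave 2 collagen genes higher by 1.5-fold, Col16a1 (0.62) joining Col1a2, and moved the median difference to 0.29 for fibrillar genes and to 0.76 for the breakdown list. At 2-fold, with 1 FPKM added, the counts were 0 higher and 0 lower. With 0.1 FPKM added, Col25a1 was past 2-fold, at -1.18. A minimum of 5 FPKM left 0 genes lower, since Col25a1 is below it, and gave medians of -0.071 for collagen genes, 0.11 for fibrillar genes and 0.039 for the other types, the last with its sign turned. With no filter the medians were -0.0019 for collagen genes, -0.0072 for basement membrane genes and -0.010 for the other types. Centring on the median of all genes gave -0.0073 for collagen genes and -0.0010 for the folding list, both near 0 to begin with. TPM moved none of the 24 results recomputed with it. This is a weak check, as all FPKM summed to 565529 in Tet2 KO and 566910 in WT, so both groups were rescaled almost alike. Type IV alone kept the basement membrane median at -0.14. With 1 FPKM added to both chains, the ratio of Col6a1 to Col6a2 was 1.45 in Tet2 KO and 1.51 in WT, against 3.96 and 2.67 without it. No paired analysis was possible because the table holds 1 combined value per group, and leaving out each library was not run for the same reason. What a library adds to any value was not examined, and no error stands beside any difference.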

Other observations

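Proteins outside the collagen family can carry a short collagen-like triplet domain, among them complement C1q, ficolins and scavenger receptors. A list of 31 such genes, assembled with earlier results known, had 15 with a mean of at least 1 FPKM. Of the 15, 6 were higher and 1 lower in Tet2 KO by 1.5-fold, against 3.72% and 2.89% of all genes. Their median difference was 0.32. Msr1, a macrophage scavenger receptor, had 22.1 FPKM in Tet2 KO against 4.78 FPKM in WT, a difference of 1.996. The 3 chains of C1q had differences of 1.17 for C1qa, 1.42 for C1qb and 1.59 for C1qc, and the ficolin Fcnb had 1.501. Emilin2, a glycoprotein of the matrix, had 8.10 FPKM in Tet2 KO against 2.79 FPKM in WT. C1qtnf3 was the gene lower, with 26.4 FPKM in Tet2 KO against 47.9 FPKM in WT, a difference of -0.84. The 8 leukocyte markers were higher as well, and their part in these differences was not tested.

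Ly6a, which encodes the Sca1 protein that the sort had selected against, had 288 FPKM in Tet2 KO against 278 FPKM in WT after culture. P4ha3, a prolyl hydroxylase subunit below the filter, had 1.21 FPKM in Tet2 KO against 0.349 FPKM in WT. Acan, the cartilage proteoglycan aggrecan, had 0.496 and 0.0742 FPKM.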
